A study of Mus musculus with 4 samples.

Results

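The clustered protocadherins are the cadherin-like adhesion genes that lie side by side in the alpha, beta and gamma clusters. They were taken from the mRNA table by gene symbol (Pcdha, Pcdhac, Pcdhb, Pcdhga, Pcdhgb and Pcdhgc followed by a number), and 58 of the 21878 genes of the table met this rule. Of these, 14 belong to the alpha, 22 to the beta and 22 to the gamma cluster. Each is represented by a single RefSeq transcript, so the sum over the transcripts of a gene equals the listed value.

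RNA depleted of ribosomal RNA was sequenced from C3H10T1/2, a mouse mesenchymal stem cell line. The untreated group comprised replicates 1 and 2, and the 5-AZA group replicates 101 and 102, cells given 20 μM of the DNA methylation inhibitor 5-azacytidine for 72 hours and kept in fresh growth medium for another 21 days. No time in culture is listed for the untreated cells, so the drug and the time in culture cannot be told apart. The study's text calls the replicates biological, but no label says that they were separate cultures, so the p-values measure only the spread between these samples, which may be technical. Values are FPKM, fragments scaled to transcript length and to the fragments of the library, which keep no read counts. The total reads, 92903364 to 93920706 per library, were recovered from the step of the circRNA values.

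Clustered protocadherins form combinations on the cell surface through which cells, above all neurons, tell themselves from others. In the alpha and gamma clusters each gene has its own promoter and its own large first exon, which encodes the extracellular domain, and this exon is spliced to constant exons shared by the whole cluster. The beta genes consist of a single coding exon. The variable promoters are rich in CpG sites, whose methylation goes with silence, and CTCF and cohesin loop an active promoter to a distant enhancer. The C-type genes (Pcdhac1, Pcdhac2, Pcdhgc3, Pcdhgc4 and Pcdhgc5) lie next to the constant exons and are known in neurons for a constitutive rather than a stochastic choice.

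In the GRCm38.p6 annotation of RefSeq the alpha cluster spans chr18:36930285-37188897, the beta cluster chr18:37264998-37521419 and the gamma cluster chr18:37661775-37841873. RefSeq lists 57 of the 58 members as protein coding and Pcdhgb8 as a transcribed pseudogene.

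The clusters differed widely in level. In untreated replicates 1 and 2 the summed alpha level was 0.00603 and 0.0180 FPKM, the summed beta level 69.5 and 66.5 FPKM, and the summed gamma level 80.1 and 83.9 FPKM. The cells thus carried beta and gamma transcripts at like summed levels and almost no alpha transcripts. In 5-AZA replicates 101 and 102 the sums were 0.0869 and 0.250 FPKM for alpha, 63.6 and 63.6 FPKM for beta, and 63.6 and 74.7 FPKM for gamma. For every cluster the 5-AZA samples lay outside the range of the untreated samples, above it for alpha and below it for beta and gamma.

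**Figure D1:**
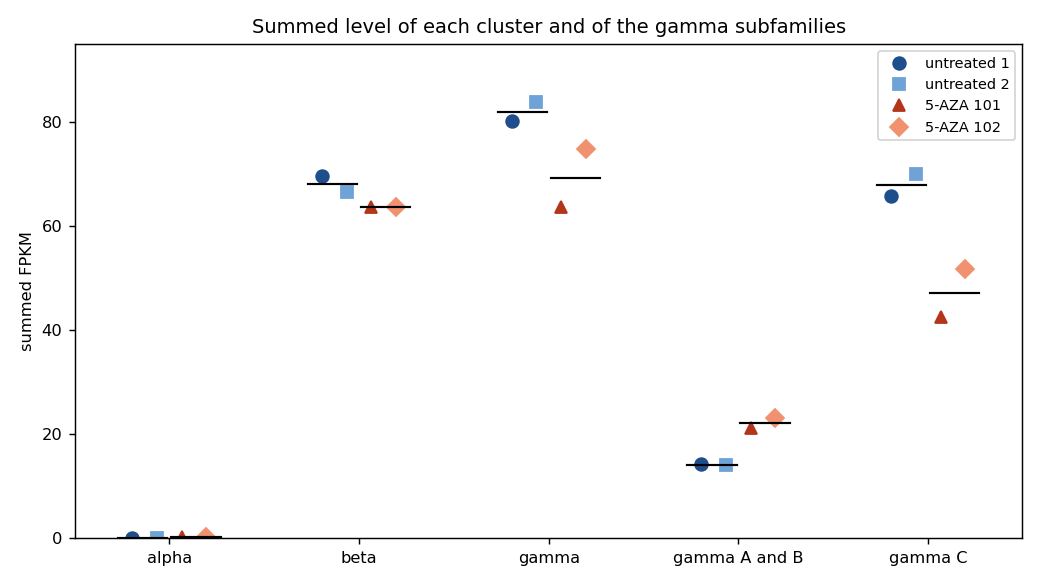
Summed FPKM (linear axis from 0) of the alpha, beta and gamma clusters and, within gamma, of the A and B subfamilies together and of the C subfamily, with a point for each sample and a bar at each group mean (n = 2 in each group). The A and B sum stands at 14.3 and 13.9 FPKM in the untreated and 21.2 and 23.0 FPKM in the 5-AZA samples, the C sum at 65.8 and 70.0 against 42.4 and 51.8 FPKM, and the alpha sum stays near the axis.

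Neither the beta nor the gamma total passed the test. Each cluster was entered as a single summed gene in a limma fit across 13160 genes on log2(FPKM + 0.1), a scale that understates the change of low genes. The beta total changed by -0.10 on the log2 scale (standard error 0.09, 95% interval -0.31 to 0.11, adjusted p = 0.509, limma). The gamma total changed by -0.25 (standard error 0.11, 95% interval -0.50 to -0.00261, unadjusted p = 0.0481, adjusted p = 0.137, limma), and it passed at a similar size after centring on each sample's median (-0.36, adjusted p = 0.0236, limma), quantile normalization (-0.31, adjusted p = 0.0302, limma) and rescaling to equal FPKM sums (-0.27, adjusted p = 0.0429, limma). The alpha total had a mean of 0.0903 FPKM over the 4 samples and was below the 0.1 FPKM required for testing. Without that limit its log2 change was 1.19 (adjusted p = 0.179, limma).

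The log2 ratio of the gamma to the beta total was 0.20 and 0.34 in the untreated and -0.00133 and 0.23 in the 5-AZA samples, which overlap. The ratio changed by -0.15 (exact two-sided permutation test, p = 0.667, adjusted p = 0.667 over 3 pairs of clusters). The ratio of beta to alpha changed by -1.29 and that of gamma to alpha by -1.44 (exact two-sided permutation tests, p = 0.333 and adjusted p = 0.500 for each). With 2 samples against 2, no p below 0.333 is possible, and the alpha values near 0 make the last 2 ratios depend on the pseudocount.

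Alpha members were close to absent. Of the 14, 11 were listed at 0 in both untreated samples, and 8 were at or below 1e-10 FPKM in each 5-AZA sample. The single value above 0.1 FPKM was that of Pcdha8, at 0.125 FPKM in 5-AZA replicate 102, while it was listed at 0 in both untreated samples and below 1e-10 FPKM in replicate 101. Pcdha11 was listed at 0 in both untreated samples and had 0.0248 and 0.0383 FPKM in the 5-AZA samples. Apart from it, Pcdha10 (0.0180 and 0.00635 FPKM) was the only alpha member above 1e-10 FPKM in both 5-AZA samples. The C-type Pcdhac1 was listed at 0 in both untreated samples and reached 0.0600 FPKM in replicate 102 only. The C-type Pcdhac2 was at 0.00603 FPKM in untreated replicate 1, listed at 0 in untreated replicate 2, and at 0.0118 FPKM in 5-AZA replicate 101 only. None of the 14 alpha members had the mean of 0.1 FPKM required, so their changes were not tested.

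**Figure D2:**
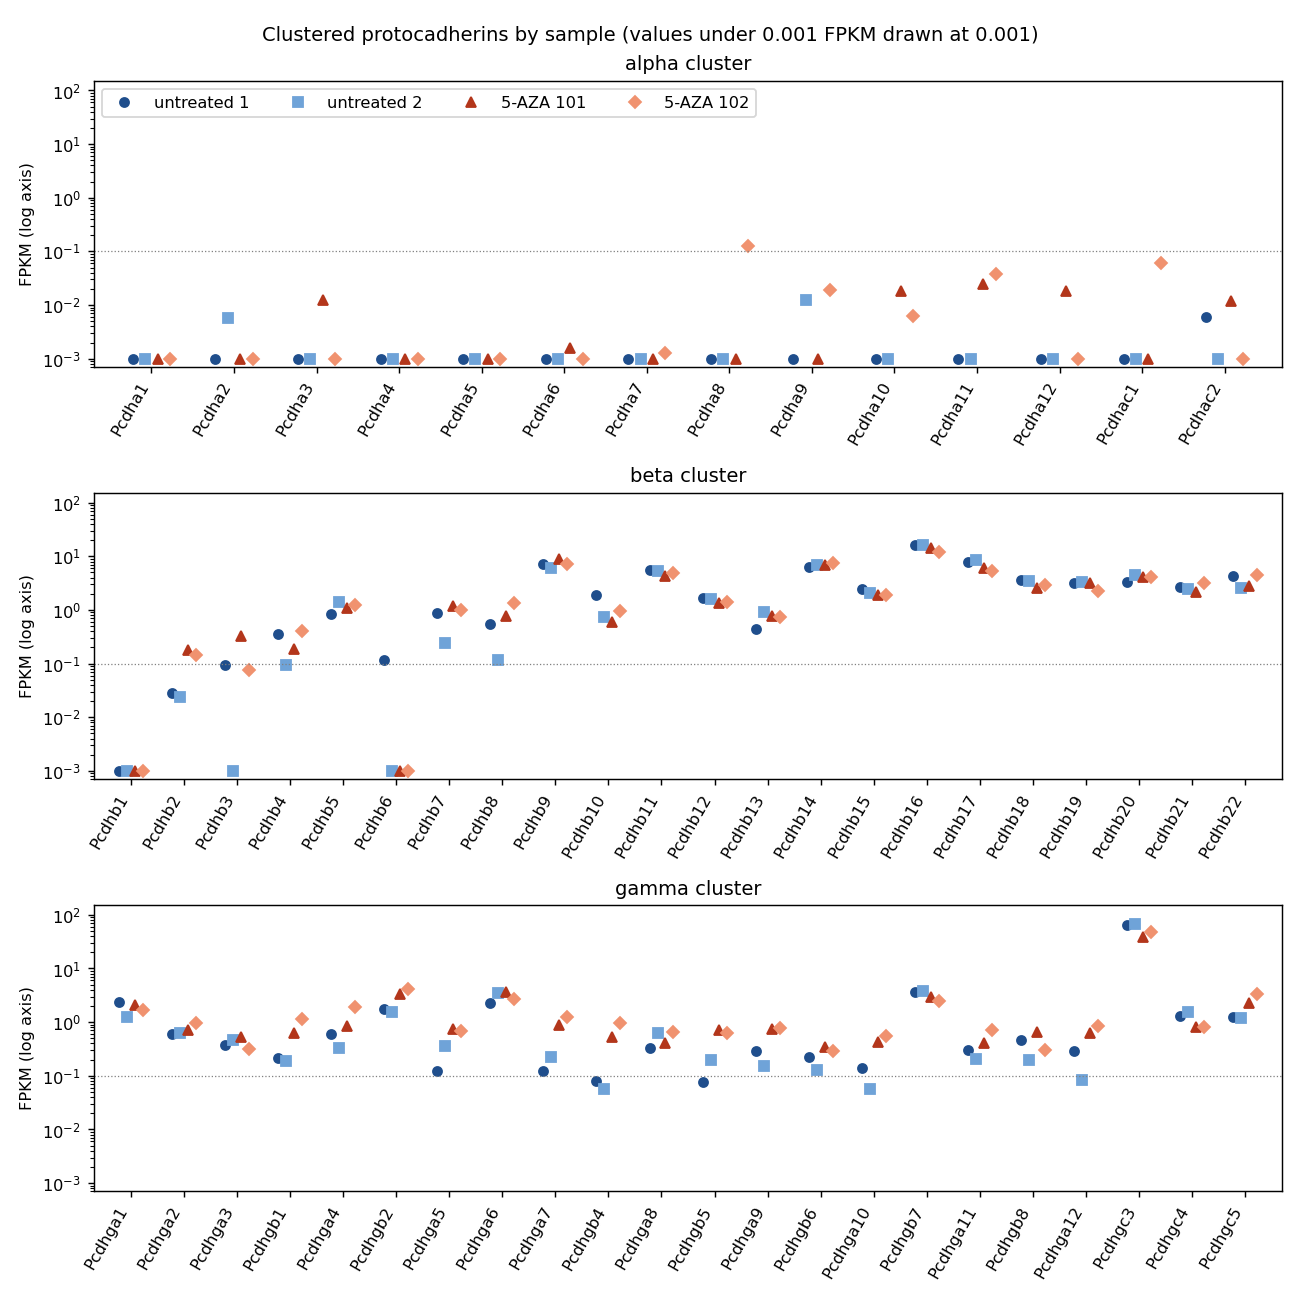
FPKM (log axis) of all 58 members in each sample, in their order on the chromosome, with values under 0.001 FPKM drawn at 0.001 and a dotted line at 0.1 FPKM, the limit on the mean. Alpha members sit near the floor with a highest value of 0.125 FPKM, and Pcdhgc3 stands above all others at 39.3 to 67.2 FPKM. Most beta members from Pcdhb9 onwards stand higher than those before, but by their means Pcdhb10 and Pcdhb13 are below Pcdhb5.

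Many beta members were expressed. At 1 FPKM or more there were 13 of its 22 members in each untreated sample, and 14 and 15 in 5-AZA replicates 101 and 102. The level differed along the cluster, with means over the 4 samples of 0 to 1.13 FPKM for Pcdhb1 to Pcdhb8, at the start of the cluster, and of 0.721 to 14.7 FPKM for the 14 genes from Pcdhb9 to Pcdhb22. Pcdhb1 was listed at 0 in every sample.

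Pcdhb16 was the highest beta member, at 16.4 and 16.2 FPKM in the untreated and 14.1 and 12.1 FPKM in the 5-AZA samples. It was lower in both 5-AZA samples but did not pass the test (log2 change -0.32, standard error 0.12, adjusted p = 0.0998, limma). Pcdhb9 had 7.10 and 6.04 FPKM in the untreated and 9.09 and 7.27 FPKM in the 5-AZA samples. These groups did not overlap, and the log2 change of 0.31 (standard error 0.16, adjusted p = 0.226, limma) did not pass. Pcdhb14 had 6.35 and 6.92 FPKM in the untreated and 6.99 and 7.62 FPKM in the 5-AZA samples, a log2 change of 0.14 (standard error 0.14, adjusted p = 0.542, limma).

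Among the 19 beta members that could be tested none met both limits of a call (0 of 19), which were an adjusted p below 0.05 and a change over 2-fold (limma, Benjamini-Hochberg adjustment over all 13199 genes tested). By the same rule 13.1% of all genes tested met them with a rise and 1.32% with a fall. In the untreated samples 14 of the 19 were at 1 FPKM or more, where 3.72% of all genes tested were called higher. The other 5 were under 1 FPKM, where 46.7% of all genes tested were. All 5 had log2 changes above 0, with a median of 0.98, against a median of -0.22 for the 14. Without adjustment, 1 beta member was higher and 2 were lower at a p below 0.05. The median log2 change of the beta members tested was 0.07, against 0.05 for all genes tested, with a range from -0.61 to 1.54. Of the 19, 4 lay higher in both 5-AZA samples than in both untreated samples and 7 lower, that is without overlap, which 36.8% and 25.4% of all genes tested did.

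A further 3 beta members were named after their values were seen. Pcdhb17 passed the test below the 2-fold limit, falling from 7.69 and 8.51 to 6.18 and 5.38 FPKM (log2 change -0.48, standard error 0.15, adjusted p = 0.0467, limma). At any size 5.93% of all genes passed in that direction. Pcdhb8 had 0.559 and 0.118 FPKM in the untreated and 0.756 and 1.33 FPKM in the 5-AZA samples (log2 change 1.54, adjusted p = 0.0610, limma), and Pcdhb7 had 0.890, 0.241, 1.18 and 1.00 FPKM in the same order (log2 change 1.03, adjusted p = 0.149, limma). In both genes untreated replicate 2 was far below untreated replicate 1, and both were called higher when untreated replicate 1 was left out.

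The gamma cluster was dominated by a single gene. Pcdhgc3, a C-type member, had 63.3 and 67.2 FPKM in the untreated and 39.3 and 47.6 FPKM in the 5-AZA samples. It was the highest of all 58 members in every sample and lower in both 5-AZA samples than in both untreated samples. It fell by 0.59 on the log2 scale (standard error 0.12, adjusted p = 0.00619, limma), which passed the test but not the 2-fold limit. The adjusted p ranged from 0.00248 to 0.0954 over 12 other settings, and the fall passed in 8 of them.

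The other C-type gamma members moved in opposite directions. Pcdhgc4 had 1.31 and 1.55 FPKM in the untreated and 0.798 and 0.825 FPKM in the 5-AZA samples, so that the groups did not overlap, but its log2 change of -0.74 (standard error 0.25, adjusted p = 0.0596, limma) did not pass. It passed in 5 of 12 other settings, with a log2 change of -1.53 after quantile normalization and an adjusted p from 0.00502 to 0.322 over the 12 (limma). Pcdhgc5, the last gene of the cluster, rose from 1.23 and 1.21 to 2.30 and 3.28 FPKM, with a log2 change of 1.11 (standard error 0.24, adjusted p = 0.00958, limma). Hence within the C subfamily 2 members were lower and 1 higher in both 5-AZA samples.

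All 22 gamma members could be tested (limma), and 11 of them rose past the 2-fold limit, against 13.1% of all genes tested. In the other direction 0 passed that limit, against 1.32% of all genes, and 3 were lower at an unadjusted p below 0.05. The median log2 change was 1.00. Both 5-AZA samples lay above both untreated samples in 14 of the 22 members and below them in 3, against 36.8% and 25.4% of all genes tested. The 11 comprised 6 of the 12 A members (Pcdhga4, Pcdhga5, Pcdhga7, Pcdhga9, Pcdhga10 and Pcdhga12), 4 of the 7 B members (Pcdhgb1, Pcdhgb2, Pcdhgb4 and Pcdhgb5) and Pcdhgc5.

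Which of the 11 passed depended on the settings. Fitted by gene under 12 other settings and once by transcript, each had a log2 change above 0 wherever it could be tested. In all 11 both 5-AZA samples lay above both untreated samples, so only the settings that rescale the samples could have reversed this direction. It was thus largely fixed by the choice of these members and is no further result. With a required mean of 1 FPKM only 2 could be tested, and both were called. In contrast, 0 of the 11 stayed called with a pseudocount of 1 FPKM, without the limit on low values, after quantile normalization or in the fit by transcript, 2 stayed called without 5-AZA replicate 101 (Pcdhgb1 and Pcdhgb4) and 1 without 5-AZA replicate 102 (Pcdhgb4). At an unadjusted p below 0.05 the numbers were 11, 9, 4, 8, 9 and 8 of the 11 in the same order.

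The members that were called were low in the untreated cells. Of the 15 gamma members under 1 FPKM there, 9 were called higher, and of the 7 at 1 FPKM or more, 2 were, Pcdhgb2 and Pcdhgc5. Among all genes tested 46.7% of those under 1 FPKM in the untreated samples and 3.72% of those at 1 FPKM or more were called higher. Of the gamma members, Pcdhgb4 and Pcdhga10 had an untreated mean under 0.1 FPKM and met the limit on low values only through the 5-AZA samples. Within 0.1 to 1 FPKM, 7 of 13 gamma members and 28.6% of all genes were called higher.

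Pcdhgb4 had the largest change, from 0.0786 and 0.0568 FPKM to 0.537 and 0.947 FPKM (log2 change 2.29, standard error 0.38, adjusted p = 0.00238, limma). Pcdhga7 rose from 0.125 and 0.221 FPKM to 0.882 and 1.23 FPKM (log2 change 2.09, standard error 0.34, adjusted p = 0.00218, limma). In both genes each 5-AZA sample was at least 2-fold above each untreated sample.

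Pcdhgb2 was the highest of the called members, with 1.73 and 1.53 FPKM in the untreated and 3.34 and 4.20 FPKM in the 5-AZA samples (log2 change 1.16, standard error 0.21, adjusted p = 0.00390, limma). Pcdhgb1 rose from 0.216 and 0.188 FPKM to 0.614 and 1.13 FPKM (log2 change 1.63), and Pcdhgb5 from 0.0778 and 0.197 FPKM to 0.714 and 0.638 FPKM (log2 change 1.75). The variable exons of the B subfamily and those of the A subfamily alternate along the chromosome, and called members of both lay among each other.

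Of the called A members besides Pcdhga7, Pcdhga10 rose from 0.139 and 0.0556 FPKM to 0.431 and 0.542 FPKM (log2 change 1.60). Pcdhga12 rose from 0.289 and 0.0850 FPKM to 0.629 and 0.851 FPKM (log2 change 1.63), and Pcdhga9 from 0.290 and 0.151 FPKM to 0.756 and 0.773 FPKM (log2 change 1.47). All 3 had non-overlapping groups, with untreated replicate 2 the lowest sample in each. Pcdhga4 rose from 0.593 and 0.329 FPKM to 0.848 and 1.95 FPKM (log2 change 1.35, adjusted p = 0.0440, limma), and Pcdhga5 from 0.125 and 0.362 FPKM to 0.731 and 0.679 FPKM (log2 change 1.32, adjusted p = 0.0410, limma). Of 11 other settings Pcdhga4 passed in 1 and Pcdhga5 in 2. With a sample left out the log2 change was 0.80 to 1.91 for Pcdhga4 and 0.80 to 1.84 for Pcdhga5.

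By the mean over the 4 samples the next highest gamma members after Pcdhgc3 were Pcdhgb7 and Pcdhga6, and neither passed the test. In the 5-AZA samples alone Pcdhgb2 had a higher mean (3.77 FPKM) than Pcdhga6 (3.17 FPKM) and Pcdhgb7 (2.67 FPKM). Pcdhgb7 had 3.72 and 3.82 FPKM in the untreated and 2.91 and 2.43 FPKM in the 5-AZA samples, with no overlap, and a log2 change of -0.49 (standard error 0.18, adjusted p = 0.0942, limma). Pcdhga6 had 2.28 and 3.44 FPKM in the untreated and 3.59 and 2.75 FPKM in the 5-AZA samples, groups that overlap (log2 change 0.16, adjusted p = 0.688, limma). The remaining 7 gamma members, outside the rule for named genes, had log2 changes between -0.02 and 0.89 and were not called.

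**Figure D3:**
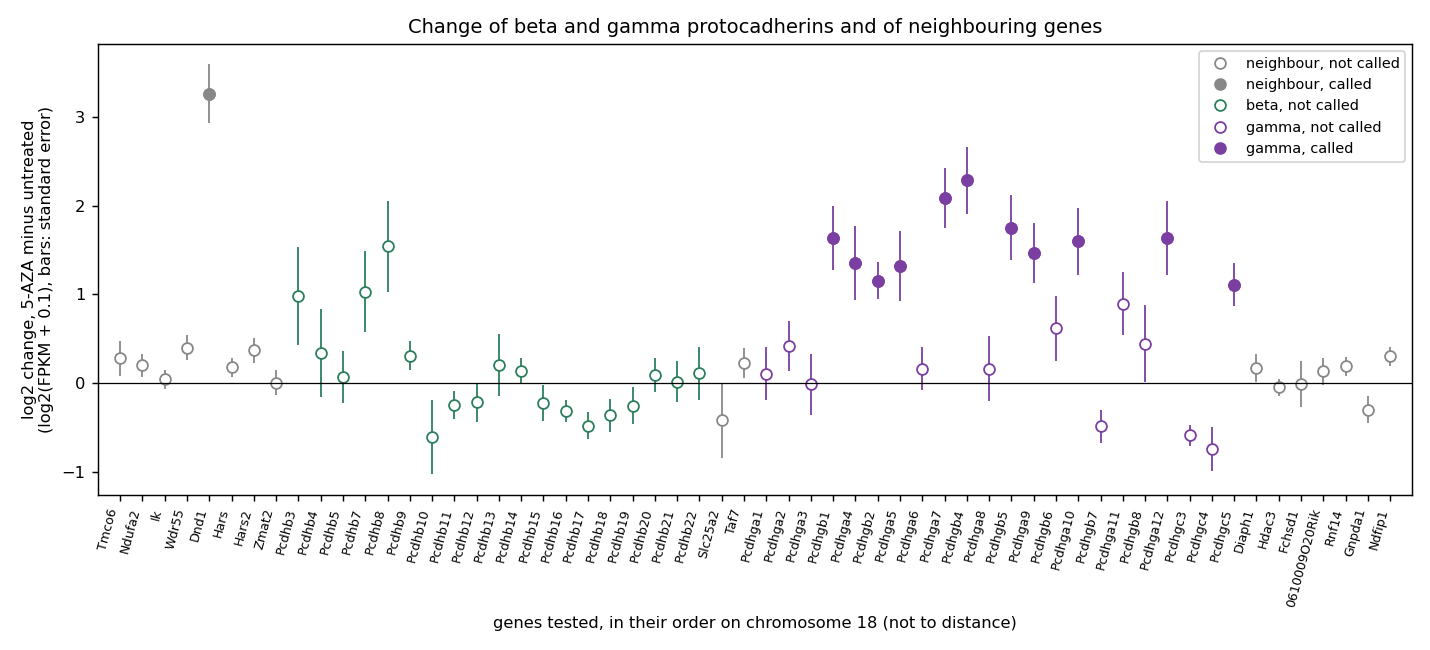
Log2 change (5-AZA minus untreated, on log2(FPKM + 0.1)) with its standard error for the 41 members tested and for 17 neighbouring genes, in their order on chromosome 18 and not to distance. Filled points are called (adjusted p below 0.05 and over 2-fold), and they comprise 11 gamma members from Pcdhgb1 to Pcdhgc5 and the neighbour Dnd1, with no beta member among them.

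The make-up of the gamma cluster was compared as shares of its total. Pcdhgc3 made up 79.0% and 80.1% of the gamma total in the untreated and 61.8% and 63.7% in the 5-AZA samples. The 6 called A members together made up 1.95% and 1.43% of it before and 6.73% and 8.06% after 5-AZA, and the 4 called B members 2.62% and 2.34% before and 8.18% and 9.24% after. These members were chosen for being higher, so their larger share is a description and no further result. The 6 A members that were not called made up 7.74% and 7.89% before and 12.3% and 9.41% after, and the 3 such B members 5.48% and 4.94% against 6.13% and 4.05%, which overlap. Such shares do not depend on how the libraries are scaled.

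The effective number of members, the exponential of the Shannon entropy of the shares, is the number of equally expressed genes that would give the same evenness. For gamma it was 2.81 and 2.66 in the untreated and 5.54 and 5.26 in the 5-AZA samples, or 2.74 ± 0.11 against 5.40 ± 0.20 (SD, n = 2). For beta it was 12.3 and 11.3 against 12.3 and 13.3, ranges that overlap. When Pcdhgc3 was set aside, a description chosen after its values were seen, the gamma number was 12.0 and 11.1 against 15.5 and 16.0. The number of gamma members at 1 FPKM or more was 7 in both untreated samples and 6 and 9 in the 5-AZA samples, and at 0.1 FPKM or more it was 20, 19, 22 and 22.

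**Figure D4:**
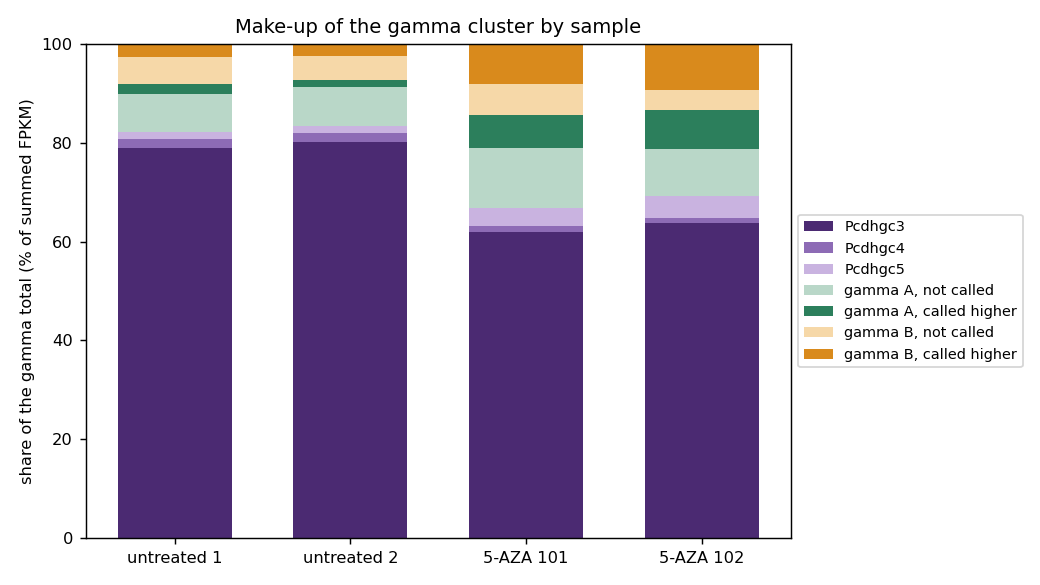
Share of each part of the gamma cluster in the summed gamma FPKM (%, stacked to 100) for every sample, with the C-type genes drawn singly and the A and B members split by whether they were called higher. Pcdhgc3 fills 79.0% and 80.1% of the untreated bars and 61.8% and 63.7% of the 5-AZA bars.

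By subfamily, given as a description with no test, the 12 A members summed to 7.76 and 7.82 FPKM in the untreated and 12.1 and 13.1 FPKM in the 5-AZA samples. The 7 B members summed to 6.50 and 6.11 FPKM against 9.10 and 9.94 FPKM. The 3 C members summed to 65.8 and 70.0 FPKM against 42.4 and 51.8 FPKM. The A and B sums were thus 1.61 and 1.51 times as high in the 5-AZA samples on average, and the C sum 0.693 times. Gamma transcripts share their constant exons, and how reads from these exons were divided among the members was not tested, so the level of a single gamma member is less certain than that of the cluster.

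The 12 non-clustered protocadherins are single genes outside the clusters, and Pcdh1 and Pcdh12 among them lie after the gamma cluster on chromosome 18. Of the 12, 5 were tested and 0 called (limma), against 13.1% higher and 1.32% lower of all genes tested. At an unadjusted p below 0.05, 3 were lower. The median log2 change of the 5 was -0.67. Pcdh19 fell from 13.9 and 10.7 to 6.88 and 6.83 FPKM (log2 change -0.82, adjusted p = 0.00484, limma) and Pcdh7 from 11.9 and 10.9 to 6.89 and 6.51 FPKM (log2 change -0.75, adjusted p = 0.00338, limma), both below the 2-fold limit. Pcdh18, the highest, had 19.8, 15.7, 18.5 and 17.1 FPKM (log2 change 0.01, adjusted p = 0.958, limma).

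From a list of 23 classical and other cadherins 12 were tested. The rise of 6 and the fall of 2 were over 2-fold and passed the test, against 13.1% and 1.32% of all genes tested, and the median log2 change was 0.96. All 6 that rose were under 1 FPKM in the untreated samples, where 46.7% of all genes tested rose by that rule, and Cdh15, Cdh5 and Cdh3 met the limit on low values only through the 5-AZA samples. Cdh15, the cadherin of muscle progenitors, was listed at 0 in both untreated samples and had 1.49 and 2.14 FPKM in the 5-AZA samples (adjusted p = 3.58e-05, limma). Cdh5 (log2 change 2.05), the endothelial cadherin, Cdh3 (1.82), Cdh17 (1.57) and Cdh26 (1.49) also rose, and Cdh19 fell from 0.411 and 0.458 to 0.0330 and 0.0343 FPKM (adjusted p = 0.00396, limma). Cdh11, the mesenchymal cadherin and the highest of the list, rose from 78.0 and 70.3 to 120.4 and 104.7 FPKM, below the 2-fold limit (log2 change 0.60, adjusted p = 0.00401, limma). Cdh2, the neural and muscle cadherin, fell from 15.9 and 12.2 to 7.75 and 8.94 FPKM (log2 change -0.74, adjusted p = 0.00980, limma), and Cdh13, a cadherin anchored to the membrane without a cytoplasmic domain, was called lower (log2 change -1.40, adjusted p = 0.00102, limma).

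Genes known to act on the clustered promoters were compared in the same way. Of 11 genes for CTCF, cohesin and its loading and release, 0 passed at any size (limma), against 18.6% higher and 5.93% lower of all genes tested. Without adjustment, 1 was lower at a p below 0.05 (Stag2), and the median log2 change of the 11 was -0.13. The highest were the cohesin genes Stag2, at 46.3, 43.7, 37.2 and 36.1 FPKM (log2 change -0.29, adjusted p = 0.0587, limma), and Rad21, at 35.2, 31.7, 32.2 and 32.0 FPKM. The CTCF gene, Ctcf, whose protein binds the variable promoters and the enhancers, had 14.1, 13.9, 11.9 and 13.7 FPKM. Of 13 genes for DNA methylation, demethylation and silencing, 0 were called higher and 1 lower (limma), against 13.1% and 1.32% of all genes tested. Without adjustment, 3 were lower and 0 higher at a p below 0.05. The gene called was Tet1, which encodes an enzyme that oxidises methylcytosine. Tet1 fell from 3.33 and 3.34 to 1.68 and 1.46 FPKM (log2 change -1.04, adjusted p = 0.00523, limma). Trim28, a corepressor and the highest of the list, had 33.9, 25.8, 25.5 and 29.8 FPKM (log2 change -0.10, adjusted p = 0.683, limma). Dnmt3b, the methyltransferase that methylates these promoters in development, had 0.671, 0.605, 0.565 and 0.548 FPKM (log2 change -0.17, adjusted p = 0.724, limma). Smchd1, a silencing factor of the clusters, had 25.8, 22.0, 18.7 and 18.4 FPKM (log2 change -0.36, adjusted p = 0.0577, limma).

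Of 12 tested partners of the cytoplasmic domains, from a list of 14, 0 were called (limma). At any size 2 passed lower and 1 higher, against 5.93% and 18.6% of all genes tested. At an unadjusted p below 0.05, 4 were lower. The 2 that passed lower were Adam10 (log2 change -0.51, adjusted p = 0.0112, limma), which encodes a protease that cleaves protocadherins, and Nckap1 (log2 change -0.40, adjusted p = 0.0169, limma), which encodes a subunit of the WAVE complex. Brk1, another WAVE subunit gene and the highest of the list, had 58.6, 64.4, 55.3 and 82.4 FPKM (log2 change 0.14, adjusted p = 0.621, limma).

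Genes beside and between the clusters were compared as a measure of the region, from a list that leaves out Pcdh1 and Pcdh12. Pcdh1 had 0.350 and 0.391 FPKM in the untreated and 0.469 and 0.929 FPKM in the 5-AZA samples (log2 change 0.70, adjusted p = 0.202, limma). Pcdh12 was below 0.1 FPKM in every sample. Of 17 neighbours tested, 1 was called, against 13.1% higher and 1.32% lower of all genes tested. This was Dnd1, a germ cell RNA-binding gene before the alpha cluster. Dnd1 rose from 0.0827 and 0.0518 to 1.26 and 1.78 FPKM (log2 change 3.26, adjusted p = 1.43e-04, limma). Its untreated mean was 0.0672 FPKM, so it met the limit on low values only through the 5-AZA samples. The median log2 change of the neighbours was 0.17, and the highest, Ndfip1, had 94.1, 87.2, 103.6 and 120.7 FPKM (log2 change 0.30, adjusted p = 0.0774, limma). Ndufa2, a subunit gene of respiratory complex I and the next highest, had 59.2, 64.8, 63.3 and 79.9 FPKM (log2 change 0.20, adjusted p = 0.307, limma). Taf7, which lies between the beta and gamma clusters, had 5.29, 4.72, 6.51 and 5.26 FPKM (log2 change 0.22, adjusted p = 0.393, limma). Diaph1, the next gene after the gamma cluster on the list, had 6.49, 5.24, 6.43 and 6.73 FPKM (log2 change 0.17, adjusted p = 0.500, limma).

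The lncRNA table lists 41 transcripts between the first alpha and the last gamma gene, 14 of them at 0 in every sample. Of the 11 tested, 0 were called (1 at an unadjusted p below 0.05), against 1.14% of the 24075 lncRNAs tested. NONMMUT103373.1, a transcript of a single exon at chr18:37655907-37658737 on the plus strand that ends 3.04 kb before Pcdhga1, had 0.605 and 0.286 FPKM in the untreated and 1.89 and 2.58 FPKM in the 5-AZA samples (log2 change 2.15, standard error 0.42, adjusted p = 0.182, limma). NONMMUT104364.1, on the minus strand at chr18:37805718-37807922, covers the start of Pcdhgc3 and had 2.48 and 1.82 FPKM in the untreated and 1.44 and 1.42 FPKM in the 5-AZA samples (log2 change -0.54, adjusted p = 0.487, limma). Both were named after their values were seen, and neither passed the test. Pcdhga1, the gene after the first of them, had 2.34 and 1.27 FPKM in the untreated and 2.10 and 1.65 FPKM in the 5-AZA samples (log2 change 0.10, adjusted p = 0.847, limma). No circRNA was listed in the region or with a member as its host gene.

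Markers showed which other cells could be present. All 8 skeletal muscle markers were called higher, and their sum went from 1.48 and 1.21 to 748 and 1144 FPKM. Among them Myod1, Myog, Ckm and Myh3 met the limit on low values only through the 5-AZA samples. Of 10 mesenchymal markers, 1 was called (Thy1, higher). At any size 4 passed higher (Thy1, Pdgfra, Ly6a and Eng) and 3 lower (Vim, Col1a1 and Col1a2), with a median log2 change of 0.30. Their sum, most of it Vim, went from 3366 and 3408 to 2210 and 2438 FPKM. Of 11 neuron markers, 8 were below 0.1 FPKM in every sample, Snap25 and Elavl3 among them were listed at 0 throughout, and the sum was 9.13 to 9.33 FPKM in the untreated and 9.29 to 9.81 FPKM in the 5-AZA samples, mostly from Map2. Of 5 glia markers 3 were called higher (Gfap, Mbp and Sox10), with Olig2 listed at 0 and a sum of 2.55 to 3.61 FPKM before and 9.81 to 16.2 FPKM after. Sox10 too met the limit on low values only through the 5-AZA samples. The sums of 3 endothelial, 3 immune and 3 epithelial markers went from at most 0.0807, 1.47 and 0.926 FPKM to at most 0.653, 3.69 and 20.1 FPKM, and 1 endothelial and 1 immune marker were listed at 0 in every sample. Most of the epithelial sum after 5-AZA was Krt8 (15.3 and 19.4 FPKM), while Cdh1 had 0.500 and 0.497 FPKM in the untreated and 0.157 and 0.367 FPKM in the 5-AZA samples (log2 change -0.79, adjusted p = 0.174, limma). The part of a changed mixture of cells in the rise of the gamma members was not tested, and in bulk RNA more cells of a type and more RNA per cell cannot be told apart.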

How the data were processed

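Total RNA of the 4 samples was depleted of ribosomal RNA and made into stranded libraries. The submitters' processing notes list Trimmomatic, HISAT2, Bowtie2 2.2.9, eXpress 1.5.1 and the build mm9, without roles. The authors deposited FPKM values by transcript for mRNAs and lncRNAs, and RPM values by circRNA. Of the lncRNA loci 1815 equal a RefSeq gene span on GRCm38.p6 once 1 is added to the listed start, so positions are given on that build. RPM values were whole multiples of a step per sample (100% within 0.01 reads), which gave the total reads.

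Transcripts of a gene were summed, and log2(FPKM + 0.1) of genes with a mean of at least 0.1 FPKM was fitted with limma 3.58.1 (lmFit, eBayes with trend) in R 4.3.3, with Benjamini-Hochberg adjustment over all genes tested. The study's count test was not used because FPKM are no counts. The script was tested on simulated data.

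Members given with the value in every sample were those called, the 3 highest of each cluster and the C-type genes. Of the other lists these were the genes called (at most 6 a list, by size) and the 2 highest, except that Cdh3, Cdh5, Cdh17, Cdh26 and Nckap1 are given without sample values. Pcdha10, Pcdhga1, the further beta members, Pcdh1, Pcdh7, Pcdh12, Cdh13, Adam10, Ctcf, Dnmt3b, Taf7, Diaph1, the marker genes and the lncRNAs fall outside this rule and were chosen after their values were seen. Some genes of the other lists are not reported here. The members and lists were chosen with earlier results of these data known. Other pseudocounts, limits and scalings, a fit without the trend, a fit by transcript and leaving out each sample were tried as alternatives.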

Additional observations from a re-analysis of the deposited data

How the results depend on the processing

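Every result rests on 2 samples in each group, and FPKM keep no depth for a single gene. With a sample left out, the lone sample of its group is assumed to vary like the other group. No paired analysis was possible because the groups share no replicate numbers. The 11 gamma calls became 0 with a pseudocount of 1 FPKM, 0 without the limit on low values, 2 with a required mean of 1 FPKM, 0 after quantile normalization, 0 by transcript, and 1 to 10 with a sample left out. Beta calls became 1 higher without the limit (Pcdhb2), 1 lower after quantile normalization (Pcdhb10), and 0 to 2 higher and 0 to 1 lower with a sample left out. Quantile normalization called 1 gamma member lower (Pcdhgc4), and without the 2-fold limit, chosen after seeing the data, 1 beta (Pcdhb17) and 1 gamma member (Pcdhgc3) passed lower. The gamma total passed at -0.36 centred on the median, -0.31 after quantile normalization and -0.27 rescaled. Pcdhga6 changed sign, to -0.086 after quantile normalization, -0.12 without untreated replicate 1 and -0.023 without 5-AZA replicate 101, within a range of -0.12 to 0.45 with a sample left out. The 8 cadherin calls became 2 with a pseudocount of 1 FPKM, 5 without the limit, 1 with a required mean of 1 FPKM, 5 after quantile normalization and 3 to 7 with a sample left out. The silencing list had 0, the neighbours 0 and the non-clustered protocadherins 1 call at a pseudocount of 1 FPKM, a required mean of 1 FPKM and quantile normalization, in that order. After quantile normalization the silencing list and the neighbours had 2 calls each, and with a sample left out the silencing list and the non-clustered protocadherins had 0 to 1. Counting members from 0.1 FPKM, a mean of 19.5 gamma members were present in untreated and 22 in 5-AZA samples. Quantile normalization moved the median log2 change of all genes from 0.05 to -0.12 and the genes called higher from 1724 of 1898 to 1041 of 1927, and centring moved that median to -0.06. The causes were not tested.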
